A study of Mus musculus with 7 samples.

Results

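The cytosolic ribosomal protein genes were the rows of the deposited gene table with symbols of the form Rpl or Rps and a number, the stalk genes Rplp0 to Rplp2, and Rpsa. S6 kinase genes and pseudogenes carrying "-ps" were dropped. This gave 85 of the 24084 gene symbols, 52 of the large and 33 of the small subunit. The series measured messenger RNA by sequencing in regulatory T cells (Tregs) of mice aged 6 weeks, with 3 libraries from the skin-draining lymph nodes (SDLN) and 4 from the skin. The source label calls the skin telogen, which is when hair follicles rest. All 7 libraries came from Foxp3-DTR mice, written Foxp3-DTR/GFP in the design text: the Foxp3 locus, which defines the Treg lineage, also drives the diphtheria toxin receptor and a green fluorescent protein. No group lacked this allele. The labels do not say how many animals a library pooled or that libraries came from separate animals, so p-values measure the spread between these libraries, which may be technical.

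A ribosome is built from ribosomal RNA and, for most ribosomal proteins, a single copy of each, and cells that grow or divide make many ribosomes. The messenger RNAs of ribosomal proteins are among the most abundant in most cells, and in T cells their translation rises on activation. They typically begin with a 5' terminal oligopyrimidine (TOP) tract, a C at the cap followed by an unbroken run of C and T, through which the kinase complex mTORC1 controls their translation. Free ribosomal proteins of the 5S particle bind Mdm2 and so connect ribosome assembly with p53.

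Gene counts totalled 13123241 to 14785751 per library in SDLN and 11009609 to 13921238 in skin, and 3 counts stood for 0.204 to 0.276 CPM, the depth-scaled count unit used below, on library totals scaled by TMM. Genes with at least 1 count numbered 13408 to 13845 in SDLN and 9690 to 12639 in skin. Foxp3 was at 69.0, 95.5 and 102 CPM in SDLN 1 to 3 and at 106.6, 248, 126 and 196 CPM in skin 1 to 4, so each library carried the defining transcript of the lineage. Other Treg and T cell markers did not all move with it. Of the 10 tested, 2 rose in skin and 0 fell. The fold change was negative for 6 and positive for 4, from -1.07 (Cd3e) to 2.55 (Ctla4), with a median log2 fold change of -0.40. The library skin 1 is named as skin by its title and source, but its tissue tag names the lymph node; results that rest on it are given with and without it. SDLN 3 had 3877 counts of the Y-linked gene Ddx3y and 4 of Xist, whereas the other 6 libraries had at most 2 counts of Ddx3y and at least 4653 of Xist, so sex differed within SDLN. Transcripts of other cells were also unevenly spread. The summed level of 18 macrophage and dendritic cell markers was 353 to 568 CPM in SDLN and 3419, 3118, 830 and 11897 CPM in skin 1 to 4; 4 of the 10 that could be tested rose in skin, and 2 had no count in any library. The sum of 13 keratinocyte markers was 8.65 to 10.6 CPM in SDLN and 24.3, 37.1, 1473 and 30.4 CPM in skin 1 to 4, and Krt5 had 0 counts in every library except skin 3 (1706) and skin 4 (1). The 9 fibroblast markers summed to 3041 CPM in skin 3, against 3.14 to 17.1 CPM in any other library. The 8 endothelium and pericyte markers went the other way, with 390 to 552 CPM in SDLN and 16.5 to 87.3 CPM in skin. Of the 2 tested, 1 fell, Pecam1. The 8 B cell markers summed to 85.7 to 106 CPM in SDLN and 3.07 to 160 CPM in skin. All 5 tested lay lower in each skin library than in each SDLN library, and 1 was called. Sums of the CD8 T cell and mast cell lists overlapped between the tissues. The sum of 14 genes known to respond to tissue dissociation was 747 to 902 CPM in SDLN and 3209 to 8860 CPM in skin. Of the 14, 7 rose in skin, as did 3.28% of all genes tested. Signs of library quality moved with tissue as well. Reads outside annotated genes made up 10.03% to 13.0% of all counts in SDLN and 14.6% to 17.1% in skin. The 3 nuclear RNAs Malat1, Neat1 and Xist summed to 3724 to 11503 CPM in SDLN and 7419 to 30559 CPM in skin, and 1 of them, Neat1, rose. Malat1 took 0.331%, 0.456% and 1.13% of the gene counts in SDLN 1, 2 and 3 and 0.565%, 2.14%, 1.94% and 2.98% in skin 1, 2, 3 and 4, with overlap. Across genes, log2 CPM correlated at 0.964 to 0.981 among SDLN pairs of libraries and at 0.624 to 0.699 among skin pairs. All these values differed between tissues or single libraries, and their part in the results on ribosomal protein genes was not tested.

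The start sites of a few members show what the TOP tract looks like and how unevenly the annotation places it. Each sequence below holds the 15 bases before and the 15 from the annotated first base of the transcript (RefSeq, GRCm38.p6, 5' to 3' on the coding strand), with the longest run of C and T in capitals. Rps18, Rps6, Rpl35 and Rps10 have a C at the annotated first base and at least 4 further pyrimidines after it. In Rpl4 the run lies upstream of the RefSeq start, but the GENCODE start given further below (64173375) falls on a C inside that run. Rpl7l1 and Rps3 hold no run of this length in the stretch shown. Rps18, Rpl4 and Rpl7l1 are shown because they fell in skin, Rps6 because S6 kinase acts on its protein, Rpl35 and Rps10 for their long tracts, and Rps3 as the small-subunit gene with the highest CPM.
Rps18, chr17:33955651-33955680 (minus strand): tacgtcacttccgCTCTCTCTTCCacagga
Rps6, chr4:86857353-86857382 (minus strand): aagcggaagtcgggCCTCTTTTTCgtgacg
Rpl35, chr2:39005117-39005146 (minus strand): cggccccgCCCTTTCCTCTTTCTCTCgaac
Rps10, chr17:27635230-27635259 (minus strand): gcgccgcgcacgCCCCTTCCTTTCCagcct
Rpl4, chr9:64173372-64173401 (plus strand): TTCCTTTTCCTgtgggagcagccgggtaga
Rpl7l1, chr17:46782642-46782671 (minus strand): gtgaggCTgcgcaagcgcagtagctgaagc
Rps3, chr7:99483695-99483724 (minus strand): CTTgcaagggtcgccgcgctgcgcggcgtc

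Ribosomal protein transcripts as a whole took a smaller share of the library in skin Tregs than in SDLN Tregs. The 85 genes held 1.90%, 1.55% and 2.54% of the gene counts in the SDLN libraries and 0.572%, 0.951%, 0.917% and 1.28% in skin 1 to 4, so the highest skin library lay below the lowest SDLN library. Their summed level was 19098, 15087 and 25738 CPM in SDLN 1 to 3 and 6312, 9545, 8896 and 12664 CPM in skin 1 to 4. The means were 19974 ± 5379 CPM (SD, n = 3) and 9354 ± 2611 CPM (SD, n = 4), a ratio of skin to SDLN of 0.468. Leaving out each library in turn gave ratios of 0.413 to 0.547. The ratio was 0.519 without skin 1, the library with the lowest sum, and 0.547 without SDLN 3, the male library with the highest. In sorted cells measured in bulk, fewer cells of a type and less RNA per cell cannot be told apart, and a share of counts says nothing of the number of transcripts per cell.

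**Figure D1:**
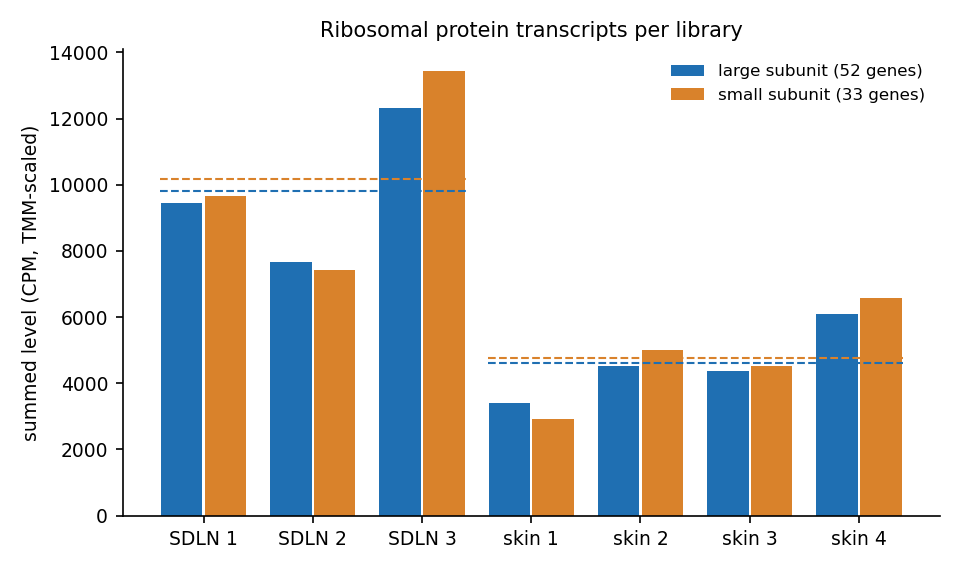
Summed level (CPM, scaled by TMM) of the large-subunit genes (blue bars) and small-subunit genes (orange bars) in each library, with dashed lines at the tissue means. All 4 skin libraries lie below the 3 SDLN libraries for both subunits, and SDLN 3 (12316 and 13423 CPM) and skin 1 (3393 and 2919 CPM) are the extremes.

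Gene by gene, few of these differences passed a test across all genes. Of the 85 genes, 79 passed the low-count filter and entered the comparison with the other genes (11376 in all). The test was edgeR's quasi-likelihood test, two-sided, with Benjamini-Hochberg adjustment over all genes and a call at an adjusted p under 0.05. It called 4 ribosomal protein genes lower in skin and 0 higher; over all genes tested 3.96% were called lower and 3.28% higher, or 7.24% in either direction. At an unadjusted p under 0.05, 19 members were lower and 0 higher, beside 8.52% of all genes lower. The fold change was negative for 63 of the 79 members, or 79.7%, against 48.2% of all genes. The median log2 fold change (skin over SDLN) of the members was -0.90, and that of all genes tested was 0.05. In 32 members (40.5%) each skin library lay below each SDLN library, as it did in 16.5% of all genes, and in 1 member, Rpl9, each lay above (10.1% of all genes). Genes that pass a filter through the tissue in which they are high are favoured by such counts, and the 6 members that did not pass it are described further below.

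The 4 genes that fell are described first. Rpl7l1 (chr17:46773907-46782672, minus strand, in the GENCODE annotation of mm10), a paralog of Rpl7, was at 184, 181 and 245 CPM in SDLN 1 to 3 and at 57.7, 44.1, 66.9 and 74.4 CPM in skin 1 to 4. The tissues were far apart, with the highest skin value 74.4 CPM and the lowest SDLN value 181 CPM. The log2 fold change was -1.74 (SE 0.31, adjusted p = 0.0233), 3.34-fold lower in skin. Rpl4 (chr9:64173375-64178666, plus strand) encodes a large-subunit protein with a long loop that lines the exit tunnel. It had the highest level of all members, also per kilobase of exon, at 3537, 2923 and 4177 CPM in SDLN and 1324, 1456, 1197 and 1970 CPM in skin. It fell 2.39-fold (log2 fold change -1.25 with SE 0.24, adjusted p = 0.0362), and the tissues did not overlap.

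Rpl8 (chr15:76904078-76906314, plus strand) encodes a core large-subunit protein near the peptidyl transferase centre. It was at 2051, 1598 and 2562 CPM in SDLN and at 661, 729, 857 and 1164 CPM in skin, again without overlap, and fell 2.43-fold (log2 fold change -1.28 with SE 0.27, adjusted p = 0.0380). Rps18 (chr17:33951999-33956001, minus strand), whose start site carries the tract shown above, encodes a protein of the small-subunit head. Its level was 166, 154 and 281 CPM in SDLN and 38.4, 46.8, 63.6 and 90.4 CPM in skin. It fell 3.35-fold (log2 fold change -1.74 with SE 0.40, adjusted p = 0.0393). For Rps18 skin 1 was the lowest and skin 4 the highest of the skin libraries, the order also seen in the summed level. All 4 genes were called again without skin 1. None was called when SDLN 1, 2 or 3 was left out, where 9, 10 and 15 genes of the whole table were called lower, so these calls rest on having all 3 SDLN libraries. Rpl8 and Rps18 were also not called without skin 2, and Rps18 not without skin 3. Over all alternatives the adjusted p ran from 1.65e-06 to 0.165 for Rpl7l1, 7.14e-05 to 0.221 for Rpl4, 3.56e-04 to 0.179 for Rpl8 and 0.00123 to 0.215 for Rps18.

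**Figure D2:**
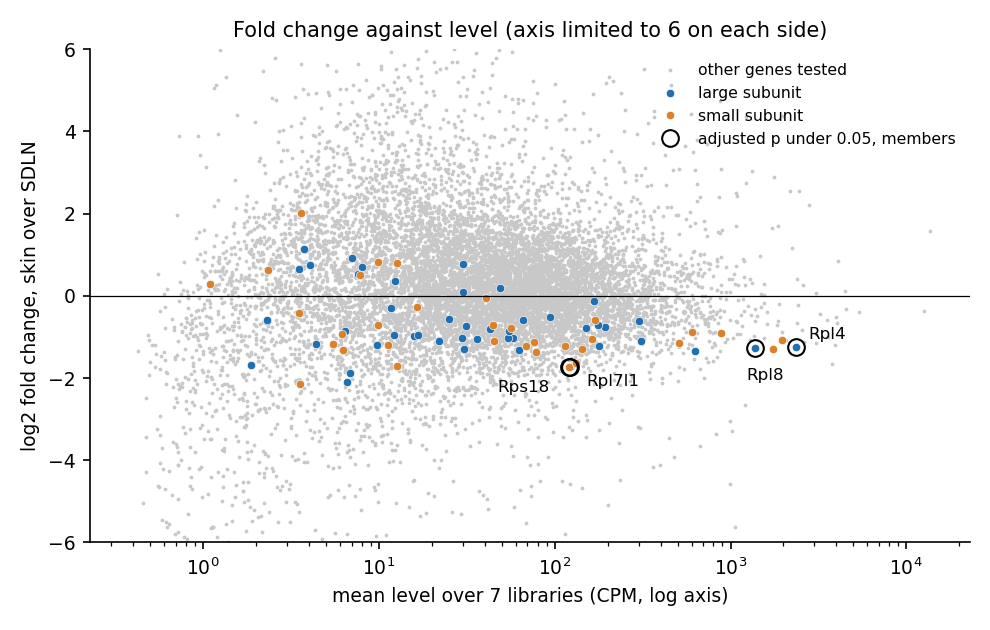
Log2 fold change (skin over SDLN) against the mean level over the 7 libraries (CPM, log axis), with all genes tested in grey, large-subunit genes in blue, small-subunit genes in orange and rings around members with an adjusted p under 0.05. The 22 members with a mean of at least 100 CPM all lie below 0, and the 16 members above 0 all lie under that level.

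Abundant and scarce members differed in how far they could be resolved. All 22 members with a mean of at least 100 CPM had a negative fold change, from -1.74 (Rps18) to -0.12 (Rpl41), with a median log2 fold change of -1.12. The median over all 2428 genes of that abundance was -0.04. Of the 22, 15 did not overlap between the tissues and lay lower in skin, against 440 of those 2428 genes, and 4 were called lower, against 89 of the 2428. Of the 57 tested members under 100 CPM, 0 were called in either direction (4 were lower and 0 higher at an unadjusted p under 0.05 in edgeR; DESeq2 called 12 members lower over both abundance classes). Their median log2 fold change was -0.79, with 41 negative and 16 positive. Low members were also noisier in skin. The median SD of log2 CPM between libraries was 0.81 in skin and 0.47 in SDLN for the members under 100 CPM, and 0.54 and 0.44 for the members above it. Other genes of at least 100 CPM had a median SD of 0.61 in skin and 0.20 in SDLN, so the abundant members varied more than other genes between SDLN libraries but not between skin libraries.

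That SDLN spread was shared by the members rather than scattered among them. Relative to each gene's SDLN mean of log2 CPM, the median member was at -0.09, -0.36 and 0.45 in SDLN 1 to 3, and 61, 68 and 8 of the 79 members lay below their SDLN mean. In skin 1 to 4 the median member was at -1.74, -0.84, -0.86 and -0.44, with 70, 61, 61 and 57 of 79 below. Skin 4 was therefore about as far below the SDLN mean as SDLN 3 was above it. Without skin 1 the median log2 fold change of the members was -0.71, and without SDLN 3 it was -0.63.

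**Figure D3:**
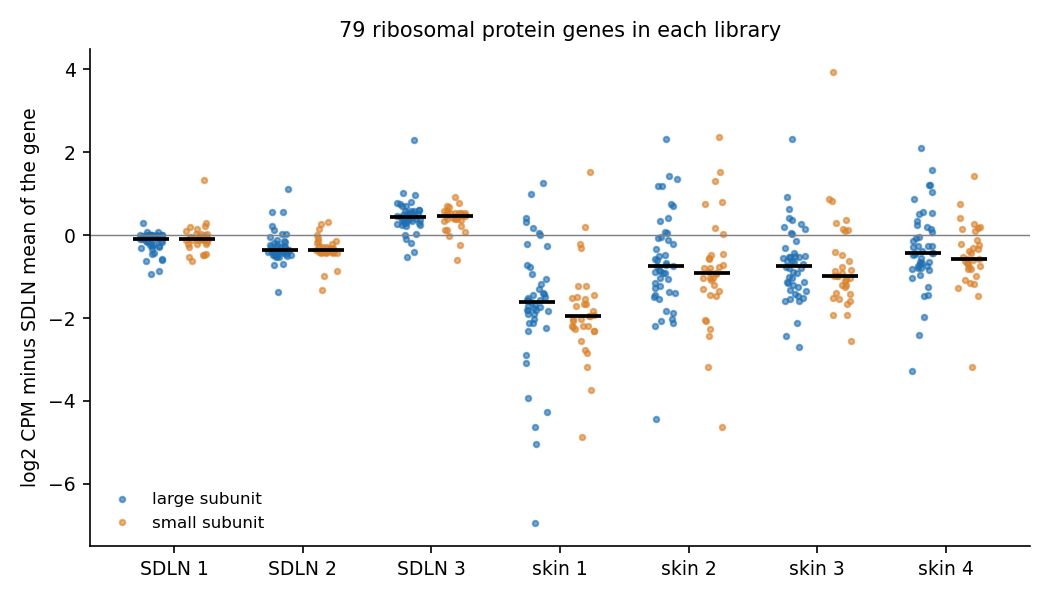
Log2 CPM of each of the 79 tested members in each library, relative to the gene's mean over the SDLN libraries (points; blue large subunit, orange small subunit; black bars, medians). The cloud sits above 0 in SDLN 3 and lowest in skin 1, and the bars of both subunits shift together.

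The sums of both subunits lay lower in skin. The large-subunit genes summed to 9446, 7667 and 12316 CPM in the SDLN libraries and to 3393, 4535, 4378 and 6096 CPM in skin 1 to 4. The small-subunit genes summed to 9653, 7420 and 13423 CPM in SDLN and to 2919, 5010, 4518 and 6568 CPM in skin. The ratio of large to small was 0.979, 1.03 and 0.918 in SDLN and 1.16, 0.905, 0.969 and 0.928 in skin. These ranges overlapped, and skin 1 alone lay above all SDLN libraries. The mean ratio in skin over that in SDLN was 1.015, and 0.957 without skin 1. The ratio of large to small was also taken without the member of highest CPM in each subunit, Rpl4 and Rps3. It was then 0.850, 0.883 and 0.834 in SDLN and 1.045, 0.826, 0.954 and 0.882 in skin. These ranges overlapped as well, but both skin 1 and skin 3 lay above all SDLN libraries. The mean in skin over that in SDLN was then 1.083. Of the 46 large-subunit genes tested, 3 were called lower, 36 had a negative fold change and the median was -0.83. Of the 33 small-subunit genes, 1 was called lower, 27 were negative and the median was -1.06. Among all genes tested, 3.96% were called lower and 48.2% were negative, with a median of 0.05. At an unadjusted p under 0.05, 7 large-subunit and 12 small-subunit genes were lower, beside 8.52% of all genes. In 16 of each subunit every skin library lay below every SDLN library (16.5% of all genes). The difference between the subunits was described, not tested.

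**Figure D4:**
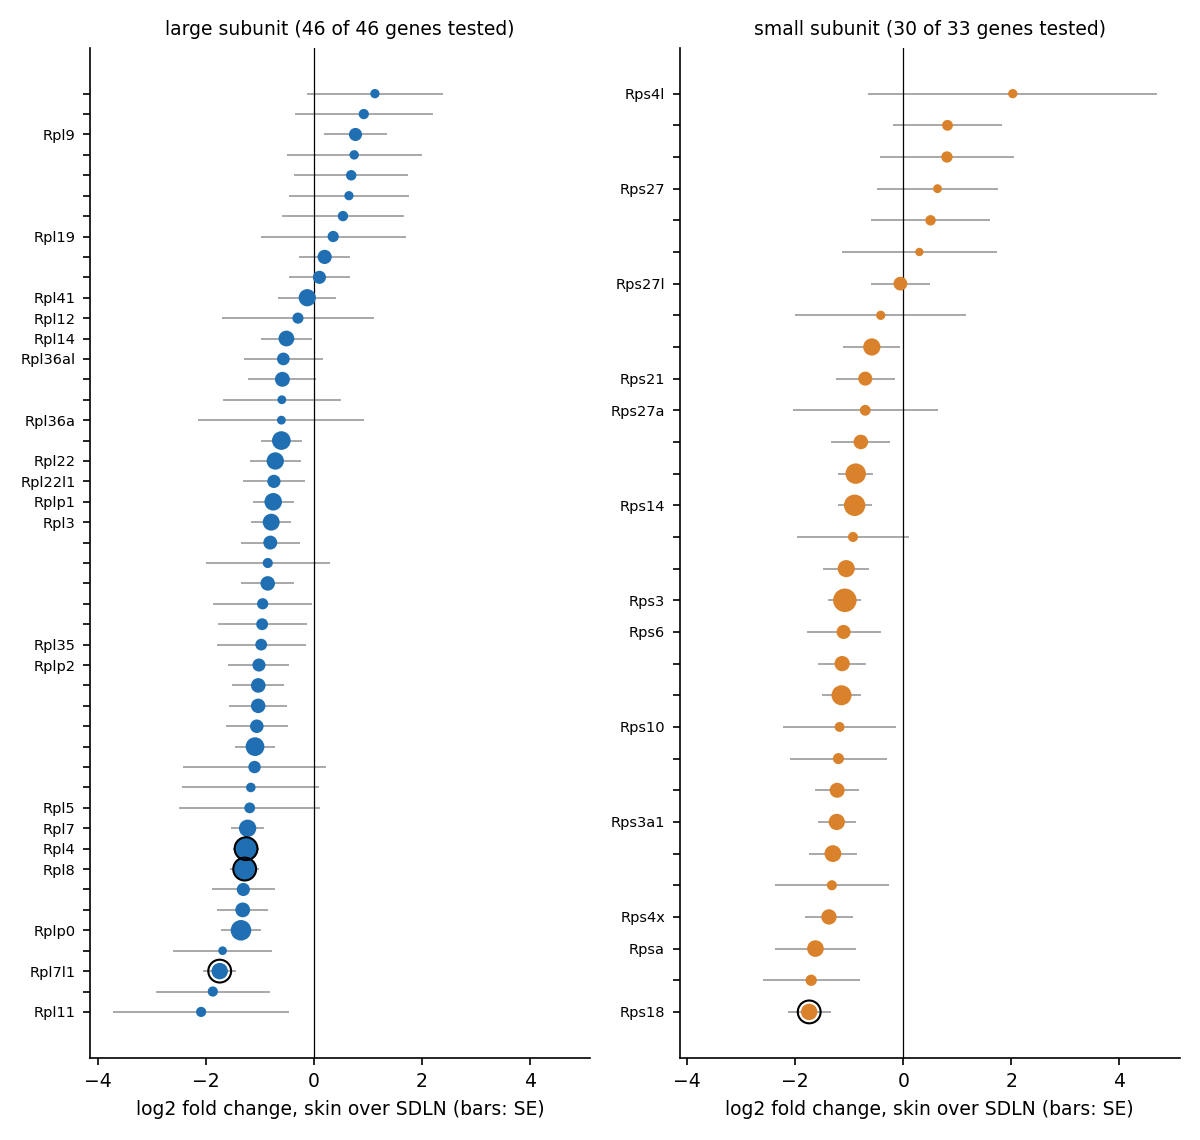
Log2 fold change (skin over SDLN) with its SE for the 46 large-subunit genes tested (left) and 30 of the 33 small-subunit genes tested (right), ordered by fold change, with names for the genes named in the text; point size grows with the mean level, and rings mark an adjusted p under 0.05. Large points with short bars lie between about -2 and 0, and members above 0 carry wide bars.

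Among the other abundant small-subunit genes, Rps3 encodes a protein at the entry of the messenger RNA channel. It was at 2704, 2046 and 3659 CPM in SDLN and 940, 1284, 1185 and 1888 CPM in skin (log2 fold change -1.08 with SE 0.31, adjusted p = 0.0846). Rps14, a platform protein, was at 1140, 888 and 1579 CPM in SDLN and 407, 788, 590 and 790 CPM in skin (log2 fold change -0.90, adjusted p = 0.158). In both genes the skin libraries lay below the SDLN libraries, yet neither passed the threshold; without skin 4, and with DESeq2, Rps3 did. Members just outside it included Rpl7 (adjusted p = 0.0540), Rplp0 (0.0700), Rps3 (0.0846) and Rps3a1 (0.0904), and the last inside was Rps18.

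The P stalk, the flexible arm of the large subunit that recruits translation factors, is built on Rplp0, Rplp1 and Rplp2 beside Rpl12. Rplp0, its anchor, was at 936, 669 and 1298 CPM in SDLN and 285, 262, 376 and 598 CPM in skin (log2 fold change -1.35 with SE 0.36, adjusted p = 0.0700). Rplp1 was at 243, 191 and 318 CPM in SDLN and at 69.9, 177, 170 and 179 CPM in skin (log2 fold change -0.75, adjusted p = 0.365). Rplp2, with 20.1 CPM per kilobase of exon in SDLN against 502 for Rplp1, was at 41.0, 33.8 and 50.3 CPM in SDLN and 15.2, 17.6, 26.4 and 23.3 CPM in skin (log2 fold change -1.02, adjusted p = 0.416). These 3 did not overlap between the tissues, and none was called. Rpl12 did overlap: it was at 7.26, 24.2 and 7.65 CPM in SDLN and 0.184, 18.04, 3.79 and 20.5 CPM in skin (log2 fold change -0.29, adjusted p = 0.959). Its fold change was positive without SDLN 2 (0.50) and without skin 1 (0.12).

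The 5S particle proteins were measured at low levels. Rpl5 was at 12.3, 20.3 and 10.4 CPM in SDLN and 13.8, 0.485, 9.61 and 1.28 CPM in skin (log2 fold change -1.19, adjusted p = 0.741). Rpl11 was at 3.05, 2.21 and 29.9 CPM in SDLN and 0.092, 3.48, 0.793 and 6.63 CPM in skin (log2 fold change -2.09, adjusted p = 0.606). A single library, SDLN 3, made the Rpl11 value: without it the log2 fold change was 0.05. Rps6, the small-subunit substrate of S6 kinase, was at 67.3, 29.1 and 99.9 CPM in SDLN and 21.2, 21.1, 15.2 and 64.0 CPM in skin (log2 fold change -1.11, adjusted p = 0.482), and skin 4 lay inside the SDLN range. Rps27a, made as a fusion with ubiquitin, was at 10.2, 11.7 and 15.9 CPM in SDLN and at 0.276, 2.18, 13.4 and 15.1 CPM in skin (log2 fold change -0.70, adjusted p = 0.872). The 12 tested genes linked to Diamond-Blackfan anaemia, an inherited failure of red cell production, included 0 called genes, 11 with a negative fold change and a median of -1.18. The 6 tested genes of the exit tunnel rim also included 0 called genes, with 4 positive and 2 negative and a median of 0.28, and their summed level of 66.2 to 107.1 CPM in SDLN overlapped that in skin (50.4 to 139 CPM).

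Paralog forms and their parents were compared as pairs. Rpl7, the parent of Rpl7l1, was at 255.8, 190 and 349 CPM in SDLN and 90.3, 99.5, 115 and 148 CPM in skin (log2 fold change -1.23 with SE 0.31, adjusted p = 0.0540). Per kilobase of exon, Rpl7 was at 98.6 CPM in SDLN and 42.2 CPM in skin, and Rpl7l1 at 58.2 and 17.4 CPM, so the paralog was the lower of the pair in both tissues. Rpl22l1 was at 38.1, 30.5 and 53.8 CPM in SDLN and 17.6, 34.5, 25.6 and 20.3 CPM in skin (log2 fold change -0.74, adjusted p = 0.594). Its parent Rpl22, which has roles in early T cell development, was at 226, 185 and 271 CPM in SDLN and 47.5, 140, 227 and 139 CPM in skin (log2 fold change -0.71, adjusted p = 0.522). Both overlapped between the tissues.

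Rps27l stayed nearest to no difference, at 34.5, 31.6 and 57.8 CPM in SDLN and 34.1, 22.9, 49.2 and 53.1 CPM in skin. Its log2 fold change was -0.05 (SE 0.54, adjusted p = 0.984) and turned positive without SDLN 3 (0.25), skin 1 (0.02) or skin 2 (0.12). Its parent Rps27 was at 1.56, 1.24 and 2.55 CPM in SDLN and 0.644, 5.18, 3.26 and 1.997 CPM in skin (log2 fold change 0.63, adjusted p = 0.857), so per kilobase of exon the paralog was at 50.6 CPM and the parent at 1.71 CPM in SDLN. Rpl36al, too, was above its parent per kilobase in SDLN (22.6 and 1.74 CPM); it was at 24.6, 19.6 and 47.6 CPM in SDLN and 9.57, 15.1, 25.6 and 32.4 CPM in skin (log2 fold change -0.56, adjusted p = 0.789). Its parent Rpl36a was at 2.24, 2.55 and 3.86 CPM in SDLN and 0, 2.99, 0.529 and 4.07 CPM in skin (log2 fold change -0.60, adjusted p = 0.909). The share of transcript windows found in no other annotated gene, described further below, was 83.8% for Rps27l and 53.8% for Rps27. It was 77.9% for Rpl36al and 14.5% for Rpl36a. More reads of the parents may thus have been set aside, and the order within these pairs is uncertain. Rps4l, a transcribed processed pseudogene in the GENCODE annotation, was at 1.56, 1.59 and 0.772 CPM in SDLN and at 0, 0, 21.4 and 0 CPM in skin. Skin 3, the library with keratinocyte and fibroblast transcripts, alone set its positive log2 fold change of 2.03 (adjusted p = 0.796). Without skin 3 the value was -7.12 (adjusted p = 0.0257, in a range of 0.0257 to 0.963 over its alternatives), against 3 skin libraries at 0, and is then no estimate of size. Rps4x, its X-linked parent, was at 84.5, 105 and 171 CPM in SDLN and 22.9, 56.1, 55.3 and 51.1 CPM in skin, without overlap (log2 fold change -1.38, adjusted p = 0.134).

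Below the filter, and so not tested, were 6 members, among them genes whose proteins are part of each ribosome. Rpl26 had 0 counts in all 7 libraries, which at these depths allows up to 0.204 to 0.276 CPM per library for uniquely counted reads. Rpl34 had 2, 2 and 6 counts in SDLN and 0, 0, 4 and 10 in skin, and Rpl30 had 9, 4 and 14 in SDLN and 0, 1, 2 and 2 in skin. The other 3 are forms known from muscle or testis. Rpl3l, the muscle form of Rpl3, had 8, 7 and 13 counts in SDLN and 0 in each skin library. Rpl10l had 8 counts in skin 2 and 0 elsewhere, and Rpl39l had 1, 3 and 12 counts in SDLN and 0, 3, 0 and 0 in skin.

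How these counts were made bears on the levels. The mouse genome holds many processed copies of ribosomal protein genes, and HTSeq sets aside a read that aligns to several places; of all counts in the deposited table, 64.9% to 70.4% stood on that line in SDLN and 61.2% to 64.9% in skin. Each skin library lay below each SDLN library in this share, and its part in the results was not tested. As a guide to how much of each member could be counted, the transcripts of each gene were read in windows of 50 bases. The share of windows found in no other annotated gene was taken (GENCODE, 84 members with protein-coding transcripts). Copies in the genome without an annotated transcript are not covered by this share. The share ran from 4.91% for Rpl35 to 100% for Rpl3l. Among the genes of highest CPM it was 97.2% for Rps3, 93.7% for Rpl8 and 83.5% for Rpl4, while Rpl5 had 14.6% and Rps6 15.4%. Per kilobase of exon, mean SDLN levels ran from 1767 CPM for Rpl4 and 1523 CPM for Rpl8 down to 0.093 for Rpl34 and 0 for Rpl26. A ribosome nevertheless holds these proteins in equal number. Across the 78 tested genes with a share, that share and the log2 SDLN level per kilobase had Pearson r = 0.405 and Spearman rho = 0.409, as a description over genes that are not independent. The order of members by level is therefore uncertain wherever the share is low. Low levels also occurred where the share was higher, so the order is uncertain there too. Rpl34 had 89.0% unique windows, Rpl9 had 78.1% at 6.91 CPM per kilobase in SDLN, and Rpl26, with 0 counts, had 56.0%.

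**Figure D5:**
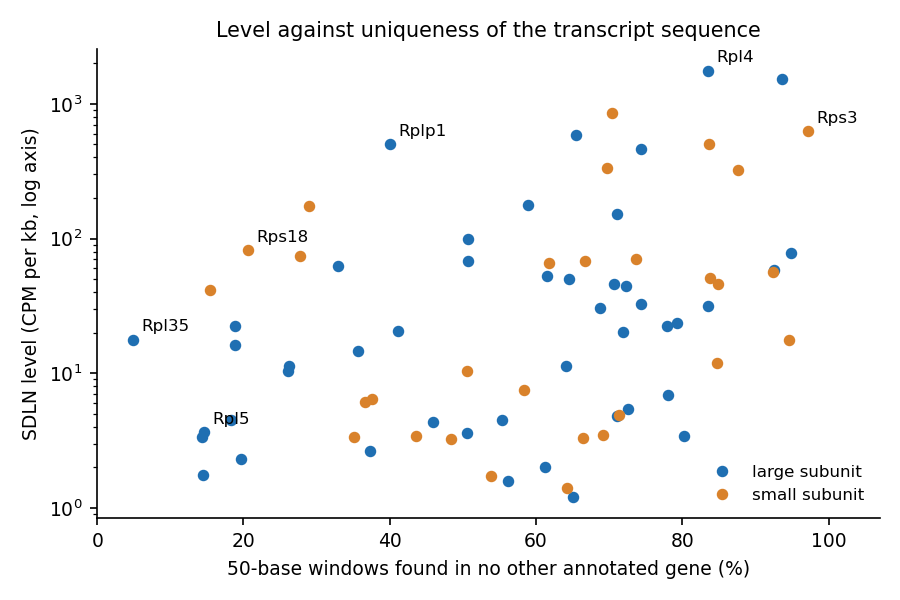
Mean SDLN level (CPM per kilobase of exon, log axis) against the share of 50-base transcript windows found in no other annotated gene (%), for 75 of the 78 tested members with a share (blue large subunit, orange small subunit). Rpl4 and Rpl8, among the highest members, hold 83.5% or more unique windows, and members under 30% reach at most 175 CPM per kilobase.

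The same share set against the log2 fold change gave r = -0.10 and rho = -0.11 over the 78 genes. The 29 tested members with at least 70% unique windows included 3 genes called lower and had a median log2 fold change of -1.02. The 33 members between 30% and 70% included 0 called genes with a median of -0.79, and the 16 members under 30% included 1, Rps18 (20.6% unique), with a median of -0.90. Among all genes tested, 3.96% were called lower. For Rps18 the reads counted come from a small part of the transcript, and reads of its copies could have been counted for it. Whether that happened was not tested. Counts also stood under annotated copies: Rpl14-ps1 was at 391, 343 and 550 CPM in SDLN and 130, 299, 244 and 384 CPM in skin, with more counts than Rpl14 itself, at 104, 84.6 and 150 CPM in SDLN and 32.1, 107.3, 74.5 and 104 CPM in skin.

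Start sites of the kind printed above made up a larger share of the member promoters than of all promoters in the RefSeq table, which listed 64 of the 85 genes. The motif was a C at the annotated first base followed by at least 4 bases that are C or T, on the coding strand. It was present in 13 of 76 member promoters (17.1%) and in 823 of all 32851 (2.51%). A run of at least 8 C or T within 30 bases on either side of the start, which overlaps the first motif, was present in 37 of the 76 (48.7%) and in 7535 of all (22.9%). The fold changes of members with and without the tract were close in their medians. The 13 genes with the tract had a median log2 fold change of -0.95, with 1 called lower, and the 46 tested genes with an entry but no tract had a median of -0.91, with 2 called lower. These counts stand beside 3.96% of all genes tested that were called lower. The group without the tract also holds genes with long runs beside or across the annotated first base, such as Rpl4 and Rpl7a (21 bases). The 2 groups thus do not separate TOP from other messenger RNAs, and their medians cannot show whether the tract matters. A match describes the letters at an annotated start, and the start used in these cells was not measured.

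Ribosomal proteins whose symbols fall outside the rule behaved as follows. Gnb2l1 (also Rack1), a scaffold on the small-subunit head, was at 2269, 1772 and 2484 CPM in SDLN and 655, 1336, 875 and 1397 CPM in skin, without overlap (log2 fold change -1.03 with SE 0.31, adjusted p = 0.102). Fau, made as a fusion of a ubiquitin-like protein with Rps30, was at 5.83, 6.42 and 11.4 CPM in SDLN and 1.38, 10.2, 4.495 and 7.77 CPM in skin (log2 fold change -0.40, adjusted p = 0.917). Neither of these genes was called.

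The rest of the machinery that builds and feeds ribosomes was read from the same fit. Over all genes tested, 3.96% were called lower and 3.28% higher, with a median log2 fold change of 0.05. The calls in each list below were few and were not tested against these shares. Among 39 tested nucleolar assembly factors, 2 fell and 0 rose, with a median log2 fold change of -0.82. Pes1, which acts in large-subunit assembly, fell from 123, 124 and 133 CPM in SDLN to 9.76, 22.7, 29.7 and 31.5 CPM in skin (log2 fold change -2.44 with SE 0.48, adjusted p = 0.0363). Wdr43, which acts in small-subunit assembly, fell from 337, 338 and 206 CPM to 140, 125, 127 and 108 CPM (log2 fold change -1.23 with SE 0.27, adjusted p = 0.0380). In both genes the tissues did not overlap. SDLN 3 was the lowest SDLN library for Wdr43 and the highest for Pes1. Neither call stood when any 1 SDLN library was left out, nor that of Wdr43 without skin 4. Among 19 genes of RNA polymerase I and ribosomal DNA transcription 0 were called (edgeR; 0 were lower and 1 higher at an unadjusted p under 0.05), with a median of -0.28. Polr2e, of highest CPM among them and a subunit that the RNA polymerases share, was at 227, 208 and 298 CPM in SDLN and 127, 174, 148 and 199 CPM in skin (adjusted p = 0.304).

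Among 38 translation initiation factors, 1 fell and 0 rose (median -0.40): Eif3d, a subunit of the eIF3 complex that binds the cap, was at 379, 326 and 433 CPM in SDLN and 193, 139, 195 and 203 CPM in skin (log2 fold change -1.05 with SE 0.24, adjusted p = 0.0390). Among 10 elongation and termination factors 0 were called (3 lower at an unadjusted p under 0.05), with a median of -0.77. Eef2, the translocation factor, stood at the threshold, at 3795, 3551 and 2916 CPM in SDLN and 2319, 1849, 1775 and 1732 CPM in skin (log2 fold change -0.83 with SE 0.21, adjusted p = 0.05003). Among 19 other genes with a known TOP tract, 1 rose and 0 fell, with a median of -0.59; the gene that rose was Vim, which encodes the filament protein vimentin, from 689, 627 and 407 CPM to 3423, 4318, 3180 and 2538 CPM (log2 fold change 2.55 with SE 0.30, adjusted p = 0.0061). Vim is also strongly expressed by the fibroblasts and macrophages whose markers were high in some skin libraries, and their part was not tested. The call of Eif3d was lost without any 1 SDLN library or skin 4, and that of Vim without SDLN 2; Eef2 passed without skin 1.

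The regulators form a mixed list of activators and inhibitors, so its counts and median have no common direction. Of 20 tested mTORC1, Myc and S6 kinase genes, 2 rose and 0 fell, with a median of 0.34. Over all genes tested 3.28% were called higher. Rps6ka3, a ribosomal S6 kinase of the RSK family, rose from 39.5, 41.4 and 49.7 CPM to 149, 96.6, 154 and 139 CPM (log2 fold change 1.63 with SE 0.33, adjusted p = 0.0380). Mxd1, which competes with Myc for its partner Max, rose from 102, 89.7 and 72.4 CPM to 475, 220, 226 and 195 CPM (log2 fold change 1.66 with SE 0.39, adjusted p = 0.0415). Both calls were lost without any 1 SDLN library. Myc itself, a driver of ribosome production named here after its value was seen, was at 193, 220 and 120 CPM in SDLN and 13.3, 63.3, 52.5 and 19.7 CPM in skin (log2 fold change -2.26 with SE 0.59, adjusted p = 0.0637). Of 18 nascent chain and quality control factors 0 were called (edgeR; 0 at an unadjusted p under 0.05 as well), with a median of -0.06; Nemf, which senses stalled large subunits, was at 296, 281 and 383 CPM in SDLN and 172, 493, 266 and 493 CPM in skin (adjusted p = 0.9099).

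The 77 ribosomal protein genes of the mitochondrion offered a parallel set. Of 76 tested, 0 were called (5 lower and 1 higher at an unadjusted p under 0.05 in edgeR), 61 had a negative fold change and the median was -0.53. Their summed level was 3765, 3468 and 4798 CPM in SDLN 1 to 3 and 2434, 2629, 2750 and 2805 CPM in skin 1 to 4. As with the cytosolic genes, SDLN 3 was the highest library, skin 1 the lowest, and the tissues did not overlap. Mrpl18, of highest CPM among them, was at 135, 112 and 159 CPM in SDLN and 70.3, 93.0, 116 and 124 CPM in skin, with overlap (log2 fold change -0.43, adjusted p = 0.5797). The difference between the cytosolic and the mitochondrial set was not tested.

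Outside the members, the genes whose log2 CPM over the 7 libraries followed the members' mean most closely were sought among 7001 candidates averaging 20 CPM or more. They were Gm13826 (Pearson r = 0.998), the tubulin gene Tubb4b (r = 0.993), the vesicle transport gene Trappc2l (r = 0.988), the ATP synthase subunit gene Atp5j2 (r = 0.984) and the copy Rpl14-ps1 (r = 0.979). These values describe a likeness picked from many genes over 7 libraries. None of the 5 was called between the tissues, with adjusted p of 0.268, 0.585, 0.628, 0.542 and 0.405 in that order.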

How the data were processed

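The deposited table holds raw counts of reads by gene symbol; the submitters' processing notes name HTSeq 0.6.1, on mm10, beside TopHat2 2.0.12 and Bowtie2 2.1.0.0, with CASAVA 1.8.2 and SAMtools 0.1.19.0. Neither the annotation nor the strand setting is given in the sources used here; overlapping or antisense genes may therefore share reads. Per the labels, cDNA came from the SMARTer Ultra Low Input kit. The lines for reads outside genes (10.03% to 17.1% of all counts, higher in skin) and for multiple alignments were left out.

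Genes were filtered with filterByExpr (minimum count 10) and tested with edgeR 4.0.16 in R 4.3.3 (TMM, robust quasi-likelihood fit, tissue as sole term, two-sided), after the same steps were tested on simulated data. The simulated tissues had the same spread between libraries, unlike SDLN and skin here, so the simulation does not show how the test behaves on these data. CPM rest on the TMM-scaled totals, and each SD is taken between libraries of a tissue. The floor of 3 counts covers counting error only. Alternatives used other scalings and filters, DESeq2 1.42.0, limma 3.58.1, a replicate block, and each library left out.

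Named genes are members called, the 3 most abundant per subunit, paralog forms with parents, members of the stalk, 5S particle, ubiquitin fusion and S6 kinase roles, ribosomal proteins outside the symbol rule, members that failed the filter, up to 2 called (or the most abundant) genes per related list, and the 5 genes most like the members. Some genes under this rule are not reported here. The members and lists were chosen with earlier results of these data known.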

Additional observations from a re-analysis of the deposited data

Results flagged for a closer look

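Of 101 measures over the 4 skin libraries, 10 held a library far from the other 3 by Dixon's criterion (its gap to the nearest of them over the range), which chance gives in about 1 in 20 groups. Skin 1 was the low library for Rplp1 (69.9 CPM, others 170 to 179), Rps4x (22.9 CPM, others 51.1 to 56.1) and Rps21 (14.6 CPM, others 39.6 to 44.8). It was the high library for Mxd1 (475 CPM, others 195 to 226). Skin 4 was the high library for Rps6 (64.0 CPM, others 15.2 to 21.2) and Rpl19 (42.4 CPM, others 1.01 to 6.88). Skin 2 was low for Eif3d (139 CPM, others 193 to 203) and alone had counts of Rpl10l (0.647 CPM) and Rpl39l (0.243 CPM, from 3 counts). Skin 3 alone had counts of Rps4l (21.4 CPM). For Rps4l, Rpl10l and Rpl39l the other 3 skin libraries were at 0, so any count would have been flagged and the rate of 1 in 20 does not apply.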

How the results depend on the processing

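The median log2 fold change of the members was negative under all 19 alternatives (-1.28 to -0.63), and 0 members were called higher under any. Genes in the whole table and members called lower depended more on the setting. Without the low-count filter 70 genes were lower and 188 higher, with 2 members lower and 0 of the small subunit. With a mean of at least 5 CPM 99 genes were lower, with 0 of the small subunit. DESeq2 called 923 genes higher and 12 members lower, 5 of the large and 7 of the small subunit. With limma-voom 729 genes and 2 small-subunit genes were lower, the mitochondrial median was -0.86 and Rps4l was at -2.66. With a variance weight per tissue 987 genes were lower and 594 higher, with 2 members lower, 0 of the small subunit, a mitochondrial median of -0.86 and Rps4l at -2.68. The median of all genes was -0.62 in both voom fits. It was -0.55 and -0.54 with the replicate block on 6 and 7 libraries, and -0.05 to 0.17 under the other alternatives. The member medians are to be read beside these values. The cause of these differences was not tested.

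The replicate numbers gave no sign of pairing: same-numbered libraries had correlations of deviations of 0.07, -0.002 and -0.04. Differently numbered libraries had -0.079 to 0.102. With so few libraries, and skin libraries that differ this much, these values cannot exclude pairing. With the replicate block on 6 libraries 10 genes were lower and 32 higher, with 0 members lower in either subunit, a mitochondrial median of -0.90, Rps4l at -4.16 and Nemf at -0.19. With the replicate block on 7 libraries 12 genes were lower and 44 higher, with 0 members lower, a mitochondrial median of -0.88, Rps4l at -4.15 and Nemf at -0.17.

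Leaving out each library in turn gave 9 to 822 genes lower, 33 to 582 higher, 0 to 8 members lower (0 to 5 large, 0 to 3 small), and log2 fold changes of -7.12 to 2.44 for Rps4l, -0.25 to 0.25 for Rps27l, -0.83 to 0.50 for Rpl12, -3.00 to 0.051 for Rpl11 and -0.060 to 0.39 for Nemf. Members called lower numbered 0 without any 1 SDLN library, which leaves fewer samples, 2 without skin 2, 4 without skin 1 or skin 3 and 8 without skin 4. Without skin 3, 3 of the 4 genes were kept. Over all alternatives, fold changes of single named genes kept direction and call 565 times, lost the call 65 times, gained it 17 times and changed sign 15 times.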
